A study of Mus musculus with 8 samples.

Results

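Adgrg2, an adhesion G protein-coupled receptor that has been reported to bind dehydroepiandrosterone (DHEA), was followed in mouse testis together with genes of the Gs-cAMP pathway and the beta-arrestins. The 10 genes are Adgrg2, Gnas, Adcy3, Adcy10, Prkaca, Pde4d, Creb1, Crem, Arrb1 and Arrb2, out of 55421 gene identifiers in the deposited files. They were chosen by symbol for their roles, and also selected on measured values, since the Arrb1 differences from the LPS libraries and the counts of Adgrg2 were known from earlier results of these data. Both are therefore given as a description, with no p for those differences. Each symbol matched 1 identifier, and all 10 passed the filter on low counts along with 26414 genes in all.

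There were 8 RNA-seq libraries of whole testis from wild-type male mice, 2 in each of 4 groups. LPS+DHEA+Nb received intraperitoneal lipopolysaccharide (LPS) and, 6 h later, DHEA together with Nb23-bi, named in the labels with no further description. LPS+DHEA received LPS and then DHEA alone at 6 h, LPS received LPS alone, and CTRL received phosphate-buffered saline. DHEA is a steroid precursor of androgens, and LPS is a bacterial cell wall component that sets off inflammation. The labels give a later injection for the DHEA groups and none for LPS, so DHEA and the act of injecting cannot be told apart. The sources used give no strain, age, dose or time of tissue collection. They do not say that the libraries of a group came from separate animals, so SD, SE and p-values measure the spread between libraries. Libraries held 61291062 to 64521795 counts. All 10 germ cell markers examined (such as Ddx4 and Prm1), all 8 of Sertoli cells and all 7 of Leydig cells had counts in every library. In whole tissue, fewer cells of a type and less RNA per cell cannot be told apart.

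As background, a receptor coupled to Gs activates the G protein alpha subunit encoded by Gnas, which stimulates membrane adenylyl cyclases such as that of Adcy3 to make cAMP. cAMP releases the catalytic subunit of protein kinase A (Prkaca), which phosphorylates the transcription factors of Creb1 and Crem, and phosphodiesterases such as that of Pde4d break cAMP down. Beta-arrestins (Arrb1, Arrb2) bind activated receptors, uncouple them from G proteins and start their internalisation. Male germ cells also hold the soluble, bicarbonate-sensitive adenylyl cyclase of Adcy10, needed for sperm motility, and an activator form of Crem that drives spermatid genes. In the male tract Adgrg2 is best known from the efferent ducts and epididymis, where it is needed for fluid reabsorption.

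The promoters of the pathway were searched for the cAMP response element (CRE), the site bound by the proteins of Creb1 and Crem. RefSeq windows on GRCm38.p6, from 250 bases before to 50 after a start site, matched 7 of the 10 genes, with 12 windows. Arrb1, Arrb2 and Crem had no window, so their promoters were not searched. The full element TGACGTCA, which is its own reverse complement, was in 0 of the 12, and in 1.79% of all 32851 windows. Its core TGACG, searched on both strands and contained in the full element, was in 4 of the 12 windows, of Gnas and Prkaca, and in 20.81% of all windows. A pair of the Gnas windows overlap and hold the same site, so the 5 matches in these windows are 4 distinct sites. The windows shown are that of the receptor gene and both of Prkaca, whose alternative starts a count per gene merges. Capitals mark the core, here in its reverse complement, and all are on the plus strand.
Adgrg2, chrX:160390440-160390739: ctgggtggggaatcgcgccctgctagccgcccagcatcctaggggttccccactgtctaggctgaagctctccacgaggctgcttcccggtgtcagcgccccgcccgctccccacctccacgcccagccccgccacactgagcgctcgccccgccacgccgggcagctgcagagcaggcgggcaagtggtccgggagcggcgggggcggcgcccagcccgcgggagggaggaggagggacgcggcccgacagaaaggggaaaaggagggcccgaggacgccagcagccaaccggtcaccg
Prkaca upstream start, chr8:83972728-83973027: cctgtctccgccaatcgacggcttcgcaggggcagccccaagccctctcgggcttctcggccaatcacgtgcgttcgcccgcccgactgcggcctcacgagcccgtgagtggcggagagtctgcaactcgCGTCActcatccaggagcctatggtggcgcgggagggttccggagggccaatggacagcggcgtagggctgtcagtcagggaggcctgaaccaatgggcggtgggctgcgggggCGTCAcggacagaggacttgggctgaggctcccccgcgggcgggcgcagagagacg
Prkaca downstream start, chr8:83976633-83976932: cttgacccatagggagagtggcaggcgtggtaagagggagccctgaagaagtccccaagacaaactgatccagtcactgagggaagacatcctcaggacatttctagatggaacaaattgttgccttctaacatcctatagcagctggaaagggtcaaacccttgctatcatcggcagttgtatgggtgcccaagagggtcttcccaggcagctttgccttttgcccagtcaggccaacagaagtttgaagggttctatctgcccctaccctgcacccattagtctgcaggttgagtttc
The upstream Prkaca window holds the core with its first base at -120 and at -6 from the start site, and the other windows shown do not hold it. A match describes the letters and not binding.

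The genes differed widely in level. Genes were compared in CPM (counts scaled to a common TMM-adjusted library total) divided by the length of the merged exons (CPM per kb). Prkaca, at 44.2 to 52.3 CPM per kb over the 8 libraries, and Adcy10, at 40.6 to 47.4, lay highest, and their ranges overlapped. Crem followed at 27.6 to 33.4 CPM per kb and Gnas at 7.86 to 8.81, each with no overlap with its neighbours in the order. Arrb2 (1.33 to 2.17 CPM per kb), Arrb1 (0.763 to 2.38), Creb1 (0.484 to 1.31) and Adcy3 (0.637 to 1.15) formed a middle range in which each overlapped the next. Pde4d, at 0.131 to 0.265 CPM per kb, and Adgrg2, at 0.0119 to 0.27, were lowest and overlapped. The germ cell cyclase thus exceeded the membrane cyclase Adcy3 by 36.1 to 74.4 times per exon length. Crem exceeded Creb1 by 22.3 to 63.3 times on the same scale.

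**Figure D1:**
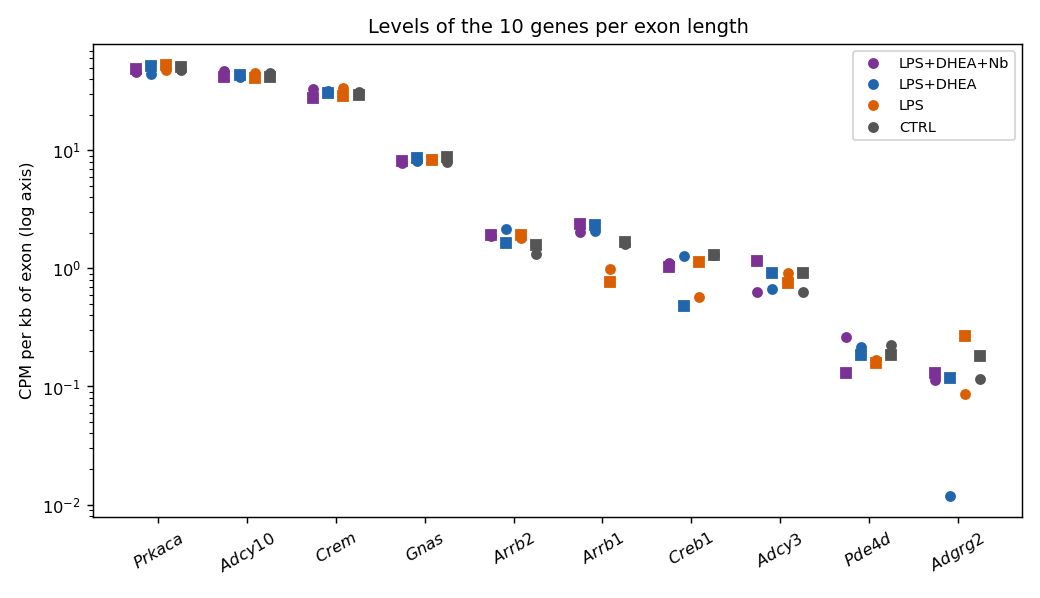
Level of each gene in each library in CPM per kb of merged exon, on a log axis, with genes ordered by their mean. Circles are replicate 1 and squares replicate 2 of each group. Prkaca and Adcy10 lie at the top, Adgrg2 has the widest spread, and Arrb1 in the LPS libraries lies below its values elsewhere.

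Arrb1, the beta-arrestin 1 gene (ENSMUSG00000018909, GRCm38 chromosome 7, 99535466 to 99606771), carried the clearest pattern. It had 22.9 and 26.6 CPM in LPS+DHEA+Nb, 23.2 and 26.1 in LPS+DHEA, 11.1 and 8.52 in LPS, and 17.9 and 18.5 in CTRL. The LPS libraries were below all others, the CTRL libraries lay between, and the libraries of both DHEA groups were above CTRL without overlap. In counts these were 1454 and 1688, 1483 and 1594, 708 and 533, and 1119 and 1185 in the same order of groups. The group means were 24.8 ± 2.65 CPM in LPS+DHEA+Nb, 24.6 ± 2.03 in LPS+DHEA, 9.84 ± 1.85 in LPS and 18.2 ± 0.451 in CTRL (SD, n = 2 each).

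**Figure D2:**
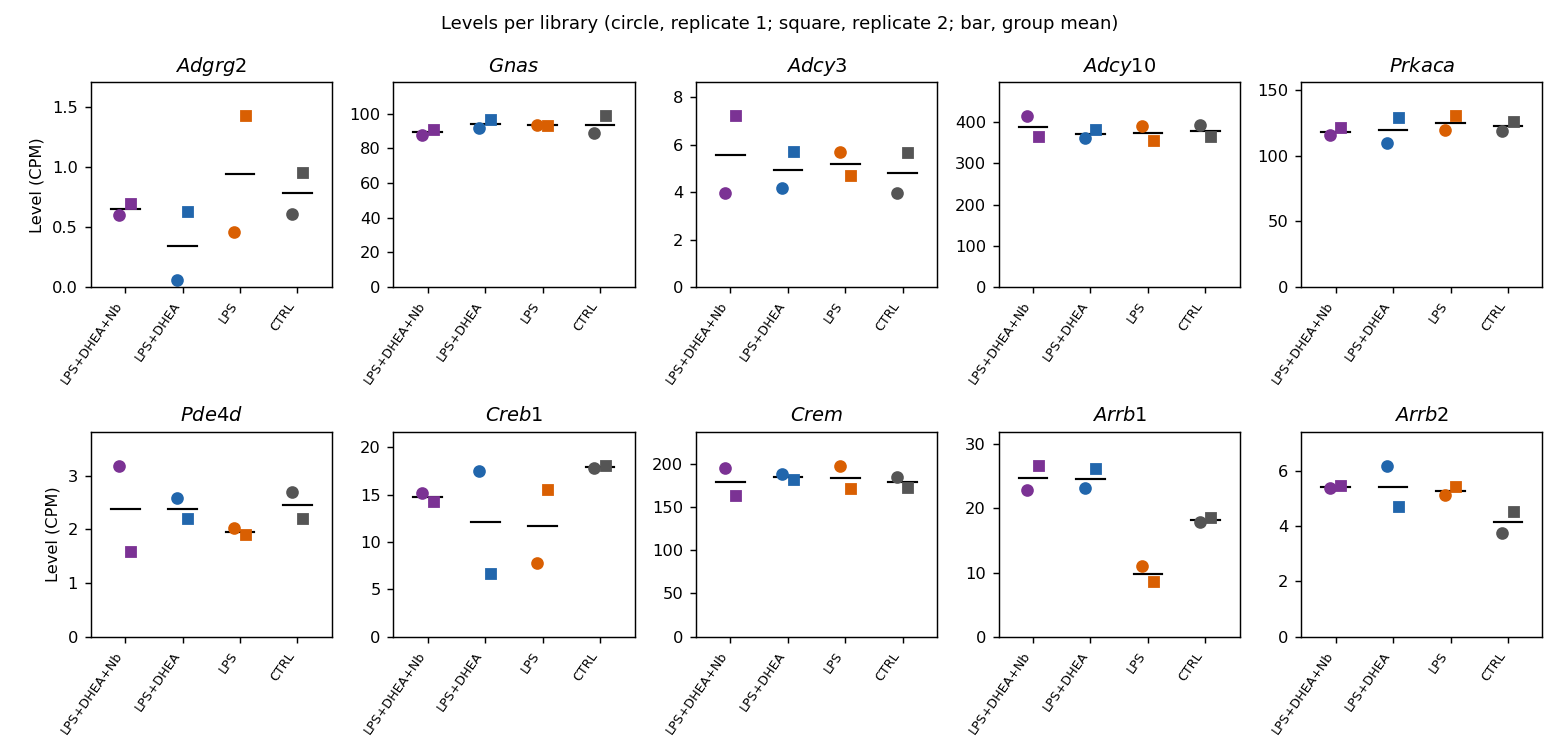
Level of each gene in CPM in each library, with circles for replicate 1, squares for replicate 2 and a bar at the group mean, on linear axes from 0. Arrb1 sits between 8.52 and 11.1 CPM in LPS and between 22.9 and 26.6 in the DHEA groups, while Gnas, Adcy10, Prkaca and Crem sit at like levels in all groups.

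For Arrb1 the fitted log2 fold change was -0.89 (SE 0.15) in LPS versus CTRL, 1.32 (SE 0.15) in LPS+DHEA versus LPS and 1.33 (SE 0.15) in LPS+DHEA+Nb versus LPS. A gene was called when its Benjamini-Hochberg adjusted p from edgeR's quasi-likelihood test, adjusted over all genes tested, was under 0.05. Arrb1 was past this threshold in these 3 comparisons, which share the LPS libraries. As the gene was selected on them, this places it on the list of calls and is no test of it. In LPS versus CTRL 1 of the 10 genes was called, against 0.295% of all genes tested. In LPS+DHEA versus LPS it was 1 of 10 against 0.0189%, and in LPS+DHEA+Nb versus LPS 1 of 10 against 0.170%. Since Arrb1 was taken with these differences known, nothing is read from these shares.

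Where Arrb1 fell relative to the threshold depended on the fit and the libraries used. This describes a gene selected on these differences and is no test of it. In LPS versus CTRL it was no longer past it with the replicate number as a block (log2 fold change -0.89), or without CTRL replicate 1 (log2 fold change -0.91), CTRL replicate 2 (-0.86), LPS replicate 2 (-0.71), LPS+DHEA replicate 1 (-0.88) or LPS+DHEA replicate 2 (-0.89). This was also so in LPS+DHEA versus LPS without LPS+DHEA replicate 2 (1.24). The log2 fold changes in LPS+DHEA+Nb versus LPS ranged from 1.15 to 1.54 over the 13 alternatives run.

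Between the DHEA groups Arrb1 did not differ beyond its error, with a log2 fold change of 0.01 (SE 0.14, edgeR adjusted p = 1) in LPS+DHEA+Nb versus LPS+DHEA. Above CTRL, the log2 fold changes were 0.44 (SE 0.14, edgeR adjusted p = 1) for LPS+DHEA+Nb and 0.44 (SE 0.14, edgeR adjusted p = 0.608) for LPS+DHEA, and neither passed. In those 3 comparisons edgeR called 0 of the 10 genes, where the shares of all genes called were 0.0871%, 0.0303% and 0.151%. DESeq2 also called 0 of the 10 in each of the 3. At an unadjusted p under 0.05 there were 0 of 10 genes in LPS+DHEA+Nb versus LPS+DHEA (4.40% of all genes), 1 in LPS+DHEA+Nb versus CTRL (4.28%) and 1 in LPS+DHEA versus CTRL (5.72%), in both cases Arrb1.

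Arrb2, the beta-arrestin 2 gene, did not share the pattern of Arrb1. It had 5.38 and 5.44 CPM in LPS+DHEA+Nb, 6.17 and 4.69 in LPS+DHEA, 5.12 and 5.42 in LPS, and 3.77 and 4.5 in CTRL. All 6 libraries that received LPS were above both CTRL libraries. The log2 fold change in LPS versus CTRL was 0.35 (SE 0.20, edgeR adjusted p = 0.806), and none of its comparisons passed. Per exon length, the ratio of Arrb1 to Arrb2 was 1.08 and 1.25 in LPS+DHEA+Nb, 0.958 and 1.41 in LPS+DHEA, 0.555 and 0.4 in LPS, and 1.21 and 1.05 in CTRL. Arrb1 was thus the lower of the pair in both LPS libraries by this measure and about level with Arrb2 or above it elsewhere. The microRNA gene Mir7115 shares 64 exonic bases with Arrb2 on the same strand and had 0 to 1 counts per library.

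Marker sums of other cells were set beside Arrb1. The summed level of 8 neutrophil markers, of which 2 had counts in every library, was 3.93 and 5.46 CPM in LPS+DHEA+Nb, 7.93 and 6.04 in LPS+DHEA, 8.91 and 6.83 in LPS, and 4.33 and 3.84 in CTRL. Both LPS and both LPS+DHEA libraries were above both CTRL libraries. Mpo was a large part of this sum and was about level, at 3.02 and 3.26 CPM in LPS and 3.2 and 3.08 in CTRL. S100a9 had 0.504 and 0.126 CPM in LPS+DHEA+Nb, 1.69 and 0.72 in LPS+DHEA, 2.44 and 1.2 in LPS, and 0 and 0.0781 in CTRL. The part of neutrophil RNA in the Arrb1 values was not tested. The 10 germ cell markers summed to 6194 and 6199 CPM in LPS+DHEA+Nb, 5533 and 6189 in LPS+DHEA, 5386 and 5552 in LPS, and 6456 and 6254 in CTRL. The LPS libraries and LPS+DHEA replicate 1 were the low ones. The spermatid genes Prm1 and Tnp1 made up 73.5% to 78.1% of this sum. The other 8 markers summed to 1508 and 1492 CPM in LPS+DHEA+Nb, 1398 and 1476 in LPS+DHEA, 1425 and 1354 in LPS, and 1570.4 and 1369 in CTRL, where LPS and CTRL overlapped. The part of germ cell RNA in the Arrb1 values was not tested. The 10 macrophage and monocyte markers, of which 9 had counts in every library, summed to 79.6 and 86.4, 87 and 76.5, 72.3 and 74.6, and 70.2 and 71 CPM in the same order of groups. This sum merges markers of unlike direction. Csf1r had 4.88 and 6.7 CPM in LPS against 11.8 and 9.77 in CTRL, and Cx3cr1 1.35 and 1.1 against 2.88 and 3.39. Itgam had 9.18 and 2.81 CPM in LPS against 0.447 and 0.672 in CTRL, and Adgre1 6.06 and 9.44 against 5.18 and 4.53. The part of these cells in the Arrb1 values was not tested. No annotated gene shares exonic bases with Arrb1.

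Adgrg2, the receptor itself (ENSMUSG00000031298, GRCm38 chromosome X, 160390690 to 160498070), was near the lower end of what the libraries could measure. It had 38 and 44 counts in LPS+DHEA+Nb, 4 and 38 in LPS+DHEA, 29 and 89 in LPS, and 38 and 61 in CTRL. In CPM these were 0.598 and 0.694, 0.0626 and 0.622, 0.457 and 1.42, and 0.607 and 0.953. LPS+DHEA replicate 1 was lowest and LPS replicate 2 highest, and the groups overlapped in each of the 6 comparisons.

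For Adgrg2 the libraries of LPS+DHEA and of LPS lay far apart. The higher library was 9.93 times the lower in LPS+DHEA and 3.12 times in LPS, against 1.16 times in LPS+DHEA+Nb and 1.57 times in CTRL. Among 2359 genes of 0.5 to 1 CPM on average, the range in which Adgrg2 lies, the median of this ratio was 1.39 to 1.42 over the 4 groups and its 90th percentile 2.49 to 2.59, leaving out the 21 to 36 genes per group with a library at 0. The ratios of Adgrg2 in LPS+DHEA and LPS were above that percentile, and those in the other groups were below it. As its counts were known when the gene was chosen, this is a description and no test. The fitted log2 fold change was -1.46 (SE 0.87) in LPS+DHEA versus LPS, which was not called. Without LPS+DHEA replicate 1 it was -0.60, without LPS+DHEA replicate 2 -3.87, without LPS replicate 1 -2.06 and without LPS replicate 2 -0.43. In LPS versus CTRL it was 0.27 (SE 0.83) and not called, and it turned to -0.77 without LPS replicate 2 and to -0.02 without CTRL replicate 1. None of the 6 comparisons of Adgrg2 was past the threshold.

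Since Adgrg2 is abundant in the ducts that leave the testis, 26 genes of efferent duct and epididymis were listed beside it. The epididymal genes Lcn5 and Rnase9 had 0 counts in every library, and Lcn8 had 2 counts in 1 CTRL library and 0 elsewhere. In all, 10 of the 26 had at most 10 counts in every library, and 14 had counts in every library, among them genes that testis cells also use, such as Cst8 and Cftr. The sum of the list was 463 and 417 CPM in LPS+DHEA+Nb, 530 and 558 in LPS+DHEA, 611 and 624 in LPS, and 479.7 and 456 in CTRL. Lcn2, which is also an acute phase gene, made up 139.9 and 104, 224 and 250.1, 327 and 314, and 127 and 125 CPM of these sums. An antisense gene, Gm15241, shares 137 exonic bases with Adgrg2 and had 0 to 6 counts per library.

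Gnas, which encodes the stimulatory G protein subunit, was steady. It had 87.9 and 90.6 CPM in LPS+DHEA+Nb, 91.7 and 96.6 in LPS+DHEA, 93.6 and 93.1 in LPS, and 89 and 98.5 in CTRL. Its highest library was 1.12 times its lowest. The log2 fold changes over the 6 comparisons lay between -0.08 and 0.01, each with an SE of 0.08. The locus is imprinted and gives several products, which a count per gene merges. The antisense gene Nespas shares 988 exonic bases with it and had 276 to 431 counts per library. Gm20721, a protein-coding gene on the opposite strand, shares 1469 exonic bases with Gnas and had 0 to 2 counts per library. No source used here gives the strand setting of the counting, so reads from Gnas and an antisense gene may not have been separated.

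The cyclase of the germ cells was as steady as Gnas, and the membrane cyclase was not. Adcy10 had 414 and 363 CPM in LPS+DHEA+Nb, 361 and 380.1 in LPS+DHEA, 392 and 355 in LPS, and 393 and 364 in CTRL. Its highest library was 1.17 times its lowest, and log2 fold changes lay between -0.03 and 0.07 with an SE of 0.08. Adcy3 had 3.98 and 7.19 CPM in LPS+DHEA+Nb, 4.16 and 5.68 in LPS+DHEA, 5.68 and 4.69 in LPS, and 3.98 and 5.66 in CTRL. Its libraries parted within groups rather than between them, and its log2 fold changes of -0.08 to 0.21 all had an SE of 0.30. Adcy3 shares 1380 exonic bases with Cenpo, a centromere gene on the opposite strand with 1018 to 1446 counts per library against 249 to 456 for Adcy3, so its values are uncertain.

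Downstream of cAMP, Prkaca had 116 and 121 CPM in LPS+DHEA+Nb, 109.9 and 129 in LPS+DHEA, 119.7 and 130.1 in LPS, and 119 and 126 in CTRL. All groups overlapped, and its log2 fold changes were -0.08 to 0.03 with an SE of 0.09. Pde4d, which codes for a phosphodiesterase that degrades cAMP, had 3.18 and 1.58 CPM in LPS+DHEA+Nb, 2.58 and 2.19 in LPS+DHEA, 2.03 and 1.89 in LPS, and 2.7 and 2.2 in CTRL. Both LPS libraries were below both CTRL libraries and both LPS+DHEA libraries, by little. For Pde4d the log2 fold change in LPS versus CTRL was -0.32 (SE 0.33, edgeR adjusted p = 0.925).

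The transcription factors differed in how far their libraries agreed. Crem had 195 and 163 CPM in LPS+DHEA+Nb, 188 and 181 in LPS+DHEA, 197 and 170.2 in LPS, and 185 and 172 in CTRL. The libraries of a group differed by up to 1.2 times, all groups overlapped, and log2 fold changes between groups were -0.04 to 0.05 with an SE of 0.10. Activator and repressor forms of Crem are merged in these values, and the antisense gene Gm6225 shares 472 exonic bases with it, with 639 to 824 counts per library against 10324 to 12498 for Crem.

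Creb1 had 15.2 and 14.2 CPM in LPS+DHEA+Nb, 17.5 and 6.66 in LPS+DHEA, 7.81 and 15.5 in LPS, and 17.8 and 18 in CTRL. The 2 lowest libraries belonged to different groups, and CTRL lay above every other library. For Creb1 the higher library was 2.62 times the lower in LPS+DHEA and 1.98 times in LPS, against 1.08 times in LPS+DHEA+Nb and 1.01 times in CTRL. No annotated gene overlaps Creb1. Its log2 fold changes were -0.28 (SE 0.54, edgeR adjusted p = 1) in LPS+DHEA+Nb versus CTRL, -0.57 (SE 0.54, edgeR adjusted p = 0.983) in LPS+DHEA versus CTRL and -0.62 (SE 0.54, edgeR adjusted p = 0.911) in LPS versus CTRL. In LPS versus CTRL the value was -0.21 without LPS replicate 1 and -1.19 without LPS replicate 2. The value in LPS+DHEA versus CTRL was -1.43 without LPS+DHEA replicate 1 and -0.03 without LPS+DHEA replicate 2.

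**Figure D3:**
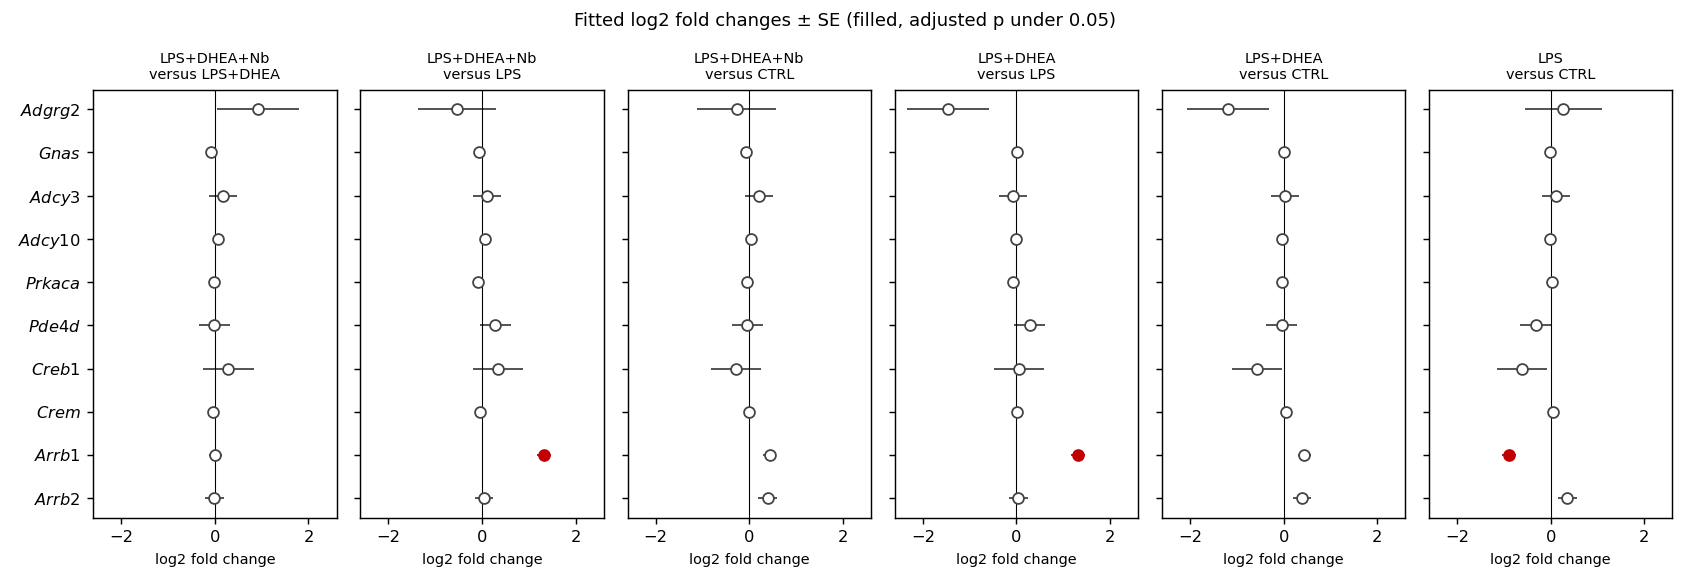
Fitted log2 fold change of each gene with its SE in 6 comparisons, filled red where the adjusted p over all genes was under 0.05. Only Arrb1 is filled, at -0.89 in LPS versus CTRL, 1.32 in LPS+DHEA versus LPS and 1.33 in LPS+DHEA+Nb versus LPS. Arrb1 was selected on these differences, so the filling is no test of it. The error bars of Adgrg2 and Creb1 are the widest.

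Taking the 10 genes as a list, in LPS versus CTRL the groups did not overlap in 4 of 10 genes (Arrb1, Creb1 and Pde4d lower, Arrb2 higher), against 37.0% of all genes tested. In LPS+DHEA versus LPS it was 2 of 10 against 31.8%, in LPS+DHEA+Nb versus LPS 2 of 10 against 36.8%, and in LPS+DHEA+Nb versus LPS+DHEA 1 of 10 against 32.7%. In LPS+DHEA versus CTRL it was 3 of 10 against 35.3% and in LPS+DHEA+Nb versus CTRL 3 of 10 against 32.9%. With 10 genes, 1 gene more or less moves such a share by 10 percentage points. The median log2 fold change of the list lay between -0.02 and 0.05 in the 6 comparisons, and that of all genes between 0 and 0.01.

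The profile of Arrb1 over the 8 libraries was compared with 14246 named genes of at least 1 CPM, as log2(CPM + 0.5) centred on each gene's mean. The measure of likeness was the root mean square difference over the 8 libraries, with a median of 0.56 over all genes compared. A flat profile scores 0.541 against Arrb1 on this measure, close to that median. The most alike were Tppp (0.219), a tubulin polymerisation protein gene, Nupr1l (0.272), a relative of the stress regulator Nupr1, Cdk2ap1 (0.279), Mrps25 (0.282), a mitochondrial ribosomal protein gene, and Gpatch4 (0.294). Mrps25 had 49.2 and 39.7 CPM in LPS+DHEA+Nb, 52.2 and 40.4 in LPS+DHEA, 26.5 and 11.2 in LPS, and 32.8 and 32.4 in CTRL. Tppp rests on fewer counts, with 114 and 76, 82 and 95, 44 and 10, and 52 and 64 in that order of groups. In each of the 5 genes both LPS libraries were below all others. The 5 were picked for likeness over these same libraries, so this describes the selection and is no separate result.

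For Adgrg2, over 16505 named genes of at least 0.2 CPM, the most alike were Ahnak2 (0.172), Usf3 (0.212), Nynrin (0.228), Gnat2 (0.23), which encodes a G protein alpha subunit of cone photoreceptors, and Plekha4 (0.256), where the median was 0.498. A flat profile scores 0.474 against Adgrg2. LPS+DHEA replicate 1 was the lowest library in all 5, and LPS replicate 2 was the highest. This too describes genes picked for likeness over the same libraries. Usf3, the most abundant of them, had 19.7 and 18.8 CPM in LPS+DHEA+Nb, 11.3 and 16.5 in LPS+DHEA, 20.2 and 26.3 in LPS, and 17.5 and 22.3 in CTRL. Gnat2 had 10 and 37, 0 and 12, 24 and 53, and 23 and 45 counts in that order.

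**Figure D4:**
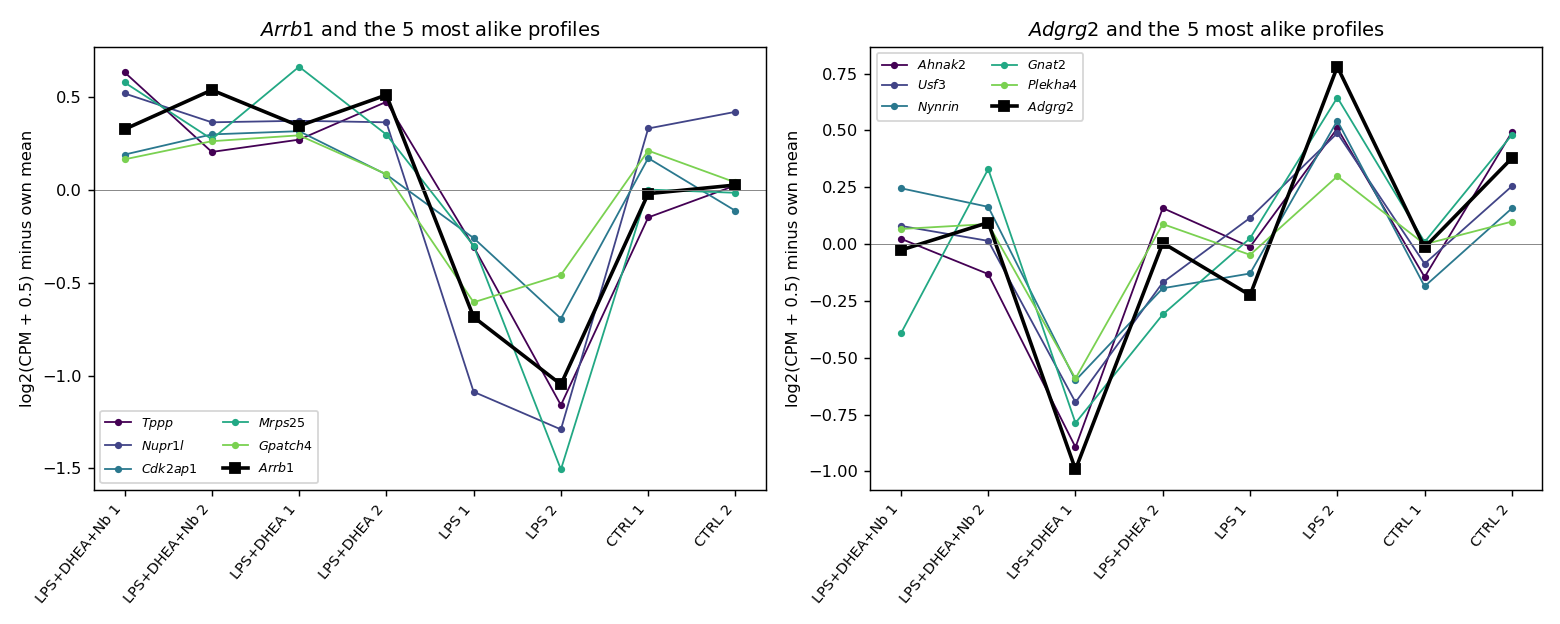
Profiles of Arrb1 (left) and Adgrg2 (right), in black, with the 5 most alike genes of each, as log2(CPM + 0.5) minus the gene's own mean, over the 8 libraries. The LPS libraries are low in every gene on the left, and LPS+DHEA replicate 1 is low in every gene on the right. The genes were picked for this likeness.

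Beyond the 10 genes, 180 further genes of the pathway in 9 lists were examined, 172 of which could be tested. They covered Gs-coupled and adhesion receptors, G protein subunits, membrane cyclases, subunits and anchors of protein kinase A with Epac genes, cAMP phosphodiesterases, CREB family genes and coactivators, receptor kinases and other arrestin partners, cAMP-induced genes and haploid CREM target genes. EdgeR called 0 of the 172 in each of the 6 comparisons. The shares of all genes called were 0.0189% to 0.295%, so a list of this size may well hold none. Nothing is read from the 0. At an unadjusted p under 0.05 there were 9 in LPS+DHEA+Nb versus LPS+DHEA (5.23%, against 4.40% of all genes tested), 18 in LPS+DHEA+Nb versus LPS (10.5% against 6.56%) and 6 in LPS+DHEA+Nb versus CTRL (3.49% against 4.28%). There were 9 in LPS+DHEA versus LPS (5.23% against 3.51%), 16 in LPS+DHEA versus CTRL (9.3% against 5.72%) and 23 in LPS versus CTRL (13.4% against 7.11%). DESeq2 called 3 in LPS versus CTRL (Lhcgr, Junb and Tnp1), 2 in LPS+DHEA+Nb versus LPS (Junb and Egr1) and 0 in each of the others. Over all genes DESeq2 called 281 in LPS versus CTRL and 204 in LPS+DHEA+Nb versus LPS. No enrichment of the lists was tested. Junb and Egr1 are named after their values were seen.

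Among receptors, Lhcgr, the Gs-coupled luteinizing hormone receptor of Leydig cells, had 6.8 and 6.81 CPM in LPS+DHEA+Nb, 5.02 and 4.6 in LPS+DHEA, 3.73 and 3.42 in LPS, and 5.88 and 9.22 in CTRL. The LPS libraries were the lowest and did not overlap with any other group. The log2 fold change in LPS versus CTRL was -1.08 (SE 0.22, edgeR adjusted p = 0.115). The 7 Leydig markers, of which Lhcgr is one, summed to 942 and 823 CPM in LPS+DHEA+Nb, 646 and 628 in LPS+DHEA, 727 and 699 in LPS, and 869 and 1018 in CTRL. Insl3 was the largest part, at 544 and 575 CPM in LPS and 552 and 597 in CTRL. The markers were not alike. Cyp17a1 had 44.2 and 17.4 CPM in LPS against 106 and 155 in CTRL, and Star 34.3 and 29.3 against 25.9 and 33.1. The part of Leydig cell RNA in the Lhcgr values was not tested. Adgrd1, another adhesion receptor gene, had a log2 fold change of -0.66 (SE 0.17, edgeR adjusted p = 0.281) in LPS+DHEA+Nb versus LPS.

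Among partners of arrestins, Grk5, a kinase that phosphorylates activated receptors, had 10 and 10.6 CPM in LPS+DHEA+Nb, 11.1 and 10.3 in LPS+DHEA, 14.6 and 12.7 in LPS, and 9.84 and 9.52 in CTRL. The LPS libraries were the highest, opposite to Arrb1. The log2 fold change in LPS versus CTRL was 0.49 (SE 0.14, edgeR adjusted p = 0.306). Pde4b, a cAMP phosphodiesterase gene related to Pde4d, had 9.76 and 10.1 CPM in LPS+DHEA+Nb, 14.9 and 9.62 in LPS+DHEA, 16.4 and 15.7 in LPS, and 12.4 and 10.7 in CTRL. For Pde4b the log2 fold change in LPS+DHEA+Nb versus LPS was -0.69 (SE 0.19, edgeR adjusted p = 0.351). Adcy7, a membrane cyclase gene, was at -0.59 (SE 0.18, edgeR adjusted p = 0.381) in LPS versus CTRL.

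Among the cAMP-induced genes, Nr4a3, an orphan nuclear receptor gene, had 2.09 and 2.38 CPM in LPS+DHEA+Nb, 3.88 and 3.89 in LPS+DHEA, 4.13 and 4.38 in LPS, and 3.5 and 4.05 in CTRL. LPS+DHEA+Nb was below the other groups without overlap. For Nr4a3 the log2 fold change was -0.80 (SE 0.21, edgeR adjusted p = 0.595) in LPS+DHEA+Nb versus LPS+DHEA and -0.93 (SE 0.21, edgeR adjusted p = 0.215) in LPS+DHEA+Nb versus LPS. Fosb, an AP-1 subunit gene, showed like values, with 1.97 and 2.46, 4.35 and 3.71, 3.39 and 3.02, and 3.95 and 3.08 CPM in the same order of groups. Junb, also an AP-1 subunit gene, had 4.67 and 6.04 CPM in LPS+DHEA+Nb, 7.73 and 11.8 in LPS+DHEA, 9.48 and 21.8 in LPS, and 6.5 and 6.17 in CTRL, so the LPS libraries differed between themselves by more than the CTRL libraries did. For Junb in LPS+DHEA+Nb versus LPS the log2 fold change was -1.55 (SE 0.41, edgeR adjusted p = 0.481), and DESeq2 gave an adjusted p of 0.000244. Egr1, an immediate early transcription factor gene, was at -1.26 (SE 0.39, edgeR adjusted p = 0.603) there, and DESeq2 gave an adjusted p of 0.0114.

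Of the 16 haploid CREM targets none was called by edgeR, while DESeq2 called Tnp1 in LPS versus CTRL (DESeq2 adjusted p = 0.0356). Tnp1, whose transition protein replaces histones in spermatids, had 1912.3 and 1881.5 CPM in LPS+DHEA+Nb, 1712.3 and 1845.8 in LPS+DHEA, 1578.2 and 1674.8 in LPS, and 1972.9 and 1948.7 in CTRL. The LPS libraries were the lowest and CTRL the highest. The log2 fold change in LPS versus CTRL was -0.27 (SE 0.06, edgeR adjusted p = 0.116), while Crem itself was at 0.04 (SE 0.10, edgeR adjusted p = 0.982) in that comparison. Tnp1 and Prm1 make up most of the germ cell marker sum given above, so that sum is no separate measure beside Tnp1. The other 8 germ cell markers overlapped between LPS and CTRL, and the part of germ cell RNA in the Tnp1 values was not tested. The median log2 fold changes of the list lay between -0.05 and 0.04 in the 6 comparisons. Of the 16 genes, 13 were positive in LPS+DHEA+Nb versus LPS+DHEA, 11 in LPS+DHEA+Nb versus LPS and 6 in LPS+DHEA+Nb versus CTRL. There were 9 in LPS+DHEA versus LPS, 5 in LPS+DHEA versus CTRL and 2 in LPS versus CTRL. These counts were not tested and have no share of all genes beside them, so no direction of the list is read from them.

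The other genes named by the smallest p of their list also did not pass. In LPS+DHEA+Nb versus LPS the log2 fold change was -0.69 (SE 0.20, edgeR adjusted p = 0.431) for Creb3l1 and -0.44 (SE 0.17, edgeR adjusted p = 0.7) for Creb3l2, which are CREB family genes. Gnai2, an inhibitory G protein subunit gene, was at -0.20 (SE 0.08, edgeR adjusted p = 0.692) there. In LPS+DHEA versus CTRL the related Gnai1 was at 0.40 (SE 0.14, edgeR adjusted p = 0.643), and Akap11 and Akap5, which encode anchors of protein kinase A, were at -0.43 and 1.11. Rgs16, a regulator of G protein signalling, was at -1.20 (SE 0.46, edgeR adjusted p = 0.776) there. In LPS versus CTRL the protamine gene Prm1 was at -0.25, the phosphodiesterase gene Pde4a at 0.21 and the cyclase gene Adcy9 at 0.39.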

How the data were processed

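Testis RNA libraries were made, per the labels' protocols, with a KAPA Stranded RNA-Seq kit. The extraction text speaks of islets although the tissue label is testis. HISAT and featureCounts 1.5.0-p3 on GRCm38 are named in the submitters' processing notes with no role or order. Multiples of 4 made up 33.5% of low deposited values (1 to 40) and 25% of high ones (1000 to 10000). The cause of this was not tested. The deposited values are whole numbers per Ensembl gene, handled as estimated counts (expected counts), since how they were made before deposit is not given. No counting interval is therefore given. They were used unscaled and needed no rounding, in the tests planned for counts.

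A separate list of gene names gave symbols for 55154 of 55421 identifiers, and GENCODE M21 (GRCm38) gave positions for 55240. In edgeR 4.0.16 (R 4.3.3), filterByExpr kept genes at a minimum count of 10 and a total of 15, TMM scaled the libraries (factors 0.985 to 1.015), and the 4 groups were fitted together by quasi-likelihood, leaving 4 residual degrees of freedom (common biological coefficient of variation 0.231). The steps were tested on simulated data. Calls need an adjusted p under 0.05. SE is the log2 fold change divided by the square root of F.

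The 10 genes and all lists were chosen with earlier results of these data known. Named besides the 10 genes are, per list, the 2 genes of smallest p over the comparisons. Also named are the 5 profiles most alike to Arrb1 and Adgrg2, and genes sharing exonic bases with the 10. Junb and Egr1 are named from the DESeq2 calls, and single genes of the marker lists by no set rule. Alternatives were DESeq2 1.42.0, its size factors in edgeR, no filter, counts divided by 4, the replicate number as a block and each library left out.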

Additional observations from a re-analysis of the deposited data

How the results depend on the processing

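For the 10 genes, 71 of 78 counts of calls under the alternatives equalled the one reported. The other 7 concern Arrb1. In LPS versus CTRL the count was 0 with the replicate block (Arrb1 log2 fold change -0.89) and 0 to 1 with each library left out. In LPS+DHEA versus LPS it was 0 to 1 with each library left out. No direction of a called value reversed. The block changed no other call among the 10 genes. The labels do not say whether replicate numbers pair the libraries. Over all genes tested, deviations of same-numbered libraries from their group means correlated at -0.03 to 0.03. Such a correlation cannot exclude a pairing that affects part of the genes.

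Counts over all genes moved more. Without a filter on low counts they were 42 in LPS+DHEA+Nb versus LPS+DHEA (23 as reported), 87 in LPS+DHEA+Nb versus LPS (45), 17 in LPS+DHEA+Nb versus CTRL (8), 10 in LPS+DHEA versus LPS (5), 80 in LPS+DHEA versus CTRL (40) and 140 in LPS versus CTRL (78). With DESeq2 they were 107, 204, 76, 37, 173 and 281 in the same order. With each library left out they ranged over 16 to 64, 43 to 88, 8 to 37, 10 to 24, 27 to 65 and 66 to 118. The causes were not tested. Adgrg2 rests on 4 to 89 counts per library.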
